A study of Caenorhabditis elegans with 2 samples.

Results

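The results concern 10 genes that act in nuclear messenger RNA (mRNA) processing, read from a map of binding sites of the protein Y116A8C.19 in the nematode Caenorhabditis elegans. They are 10 of 19973 nuclear protein-coding genes: thoc-1, thoc-2, thoc-3, thoc-5 and thoc-7 of the THO complex, and prp-8, prp-19, mog-1, mog-4 and mog-5 of the spliceosome. The genes belong together by function, but they were chosen by signals of this experiment as well, since thoc-5, prp-19 and mog-4 were known to carry strong regions. Their signals are therefore a description, and no test was made of them. Regions were assigned to a gene when the summit, the position of highest signal, lay from 1000 bp upstream to 200 bp downstream of its annotated 5′ end.

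The THO complex joins nascent transcripts while they are being made and hands spliced mRNA to the export machinery of the nuclear pore. The spliceosome removes introns in a series of steps, driven by RNA helicases that rearrange it. In the worm germ line the mog genes are known for mutants that keep making sperm and fail to switch to oocytes.

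Chromatin immunoprecipitation followed by sequencing was carried out on 2 biological replicates of 1 group, with no second condition. The group was whole hermaphrodite larvae of the first larval stage, taken 6 hours after synchronization, which was by bleaching and starvation. The strain, OP532, carried the unc-119(tm4063) mutation and the insertion wgIs532, from which Y116A8C.19 is made with a GFP-FLAG tag on its C terminus. Precipitation used an antibody against GFP, so the tagged protein was followed and not any untagged one. The control library was not analysed here, and lists of regions cannot show which cells were present. In whole larvae, binding in few cells and weak binding in all cells cannot be told apart.

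The deposited lists held 22595 regions for replicate 1, 22358 for replicate 2, 2689 for both pooled, and 198 in a list thresholded by the irreproducible discovery rate (IDR), a measure of how well the ranks of regions repeat between replicates. Each region carries a signal in the authors' units, whose scale is not given, so signals and ranks are read within a list. The 198 IDR peaks were the 198 strongest pooled regions, with signals from 55.0 to 247.7, and the next pooled region had 54.9. Ranks in the replicates were not alike for all of them: 18 of the 198 had no region or a rank beyond 1000 in a replicate, none of them at thoc-5, prp-19 or mog-4. The median pooled signal was 28.1. The pooled and replicate lists hold background regions as well as peaks, so a region in them is not by itself a call of binding, and read depth is unknown.

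An IDR peak lay in the promoter window of 3 of the 10 genes, thoc-5, prp-19 and mog-4, against 1.18% of all nuclear protein-coding genes. That count follows from how the genes were chosen. The pooled list added mog-5 at a low signal and so reached 4 of 10, against 6.66% of all genes. The sequences under these 4 pooled summits are shown first, because they differ in the short words they hold. Each is 151 bp long, runs 75 bp to either side of the pooled summit on the strand of the gene, and was read from the RefSeq genome (build WBcel235, ce11). Capitals mark copies of 3 words of 8 bases with up to 1 mismatch on either strand: CTAGGCCA, ACTCCTCT and GAGTACAC.
thoc-5, chrIII:5349372-5349522, minus strand: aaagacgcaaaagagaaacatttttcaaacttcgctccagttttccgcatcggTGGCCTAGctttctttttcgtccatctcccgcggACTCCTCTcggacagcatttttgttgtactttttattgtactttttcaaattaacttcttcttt
prp-19, chrIII:5172612-5172762, minus strand: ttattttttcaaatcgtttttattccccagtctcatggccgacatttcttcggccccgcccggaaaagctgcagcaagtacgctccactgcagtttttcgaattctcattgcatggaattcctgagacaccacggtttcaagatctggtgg
mog-4, chrII:14561865-14562015, minus strand: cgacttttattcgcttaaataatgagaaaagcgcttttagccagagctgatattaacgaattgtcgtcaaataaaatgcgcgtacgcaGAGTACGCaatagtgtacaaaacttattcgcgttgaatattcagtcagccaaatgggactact
mog-5, chrII:5399296-5399446, plus strand: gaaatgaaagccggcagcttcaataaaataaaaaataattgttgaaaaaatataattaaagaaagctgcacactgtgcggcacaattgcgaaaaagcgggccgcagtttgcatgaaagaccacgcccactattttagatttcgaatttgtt

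The words came from the other 195 IDR peaks, without the peaks of thoc-5, prp-19 and mog-4. With both strands merged, CTAGGCCA, called the first element here, had the largest excess of all words in the 151 bp windows over windows 500 bp to either side, at 23.1% of peaks and 0.513% of flanks. ACTCCTCT, the second element, was next in that order, at 18.5% and 0.769%, and shares no 5 letters in a row with it. GAGTACAC followed at 17.9% and 0.769%, tied with GGAGTACA, which overlaps it by 7 letters and was placed after it by alphabet alone. GAGTACAC overlaps the reverse complement of ACTCCTCT by the letters GAGT, so these 2 words can be read from 1 longer stretch.

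The thoc-5 window held CTAGGCCA and ACTCCTCT without a mismatch. The first lay from -68 to -61 bp and the second from -34 to -27 bp, where negative distances are upstream of the 5′ end, and the summit at -46 bp fell between them. Exact copies of both were in 6.67% of the other IDR windows (13 of 195) and in 0.0451% of 151 bp windows that end at a protein-coding 5′ end (9 of 19973). The mog-4 window held neither of these, but 1 copy of GAGTACAC with 1 mismatch, as GAGTACGC. That match rests on the order of the tied words, since the tied GGAGTACA was not found with up to 1 mismatch in the windows of thoc-5, prp-19, mog-4 or mog-5. With up to 1 mismatch GAGTACAC was in 35.4% of the other IDR windows and in 6.51% of the 151 bp promoter windows. The prp-19 and mog-5 windows held none of the 3 words, and 61.5% of the other IDR windows held at least 1, as did 21.3% of pooled regions outside the IDR list and 17.1% of the 151 bp promoter windows. The words were chosen for their excess in these other IDR windows, so higher shares there follow from that choice. A match to letters is a description of the sequence and says nothing of which protein sits there. The GC content of these windows was 39.7% at thoc-5, 47.0% at prp-19, 38.4% at mog-4 and 37.1% at mog-5, where the other IDR windows ranged from 26.5 to 65.6% with a median of 42.4%.

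The strongest region of the set belonged to thoc-5, whose product is part of the THO complex. In the pooled list its signal was 145.6, rank 16 of 2689, with the region on chromosome III from 5349387 to 5349516. In replicate 1 it had signal 76.2 and rank 32, and in replicate 2 signal 69.1 and rank 8. Both replicates placed it near the top of its list, and the summits, at -46 bp and -47 bp, lay 1 bp apart. Among the other 193 IDR peaks with a region in each replicate the median distance between replicate summits was 19 bp, with quartiles of 8 and 34 bp. The pooled region was 130 bp wide where the median IDR peak was 390 bp, and it was 1 of 19 narrower ones. The thoc-5 gene runs on the minus strand of chromosome III from 5345931 to 5349401 and has 2 annotated transcripts. The pooled summit lay outside any gene body, 87 bp upstream of the first annotated start codon, and no other annotated gene had it in its promoter window. No other protein-coding gene lay within 5000 bp upstream. Replicate 2 listed a second region at -251 bp with signal 8.91 and rank 13820, below that list's median signal of 9.53. The peaks next in rank were at tag-124 with E02H1.1 (rank 15, signal 147.4) and at rank 17 (145.2), the latter outside all protein-coding promoter windows.

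The peak counted for prp-19 lay far from the gene and close to a neighbour. The PRP-19 protein is a ubiquitin ligase that holds together a complex needed for the active spliceosome. Its pooled region, on chromosome III from 5172492 to 5172881, had signal 117.5 and rank 33. Replicate 1 gave signal 70.6 and rank 38, and replicate 2 gave 46.8 and rank 31, so both ranks were close to the pooled one. The replicate summits were 5 bp apart. The pooled summit lay at -642 bp from prp-19, which runs on the minus strand from 5169933 to 5172045. It lay at -33 bp from K10D2.5, which is transcribed in the opposite direction, and at -752 bp from emb-1, the next gene beyond K10D2.5 on that strand. The peak therefore sat in the promoter windows of 3 protein-coding genes at once, as did 8 of 198 IDR peaks. Counted for the gene with the nearest 5′ end alone, it belonged to K10D2.5 and not to prp-19. Binding at prp-19 cannot be told apart from binding at K10D2.5. The peaks on either side in rank were those of gfm-1 with rict-1 (rank 32, signal 118.5) and of Y38C1AA.12 (rank 34, signal 115.3).

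The third peak stood upstream of mog-4, which encodes a DEAH-box helicase, the counterpart of yeast Prp2 that acts just before the first splicing step. The pooled region, on chromosome II from 14561745 to 14562134, had signal 82.5 and rank 81. Its replicate values were signal 55.5 and rank 70 in replicate 1, and signal 28.4 and rank 108 in replicate 2. The summits of the replicates, at -319 and -343 bp, were 24 bp apart, farther than at thoc-5 or prp-19 but inside the quartiles of the other IDR peaks. Replicate 2 split this stretch into a pair of overlapping regions, the second at -552 bp with signal 17.3 and rank 624. The mog-4 gene, on the minus strand from 14552504 to 14561599, has 2 annotated transcripts, and the later one starts 8319 bp inside the gene. The pooled summit at -341 bp lay outside any gene body. No other annotated gene had it in its window, and no other protein-coding gene lay within 5000 bp upstream. Of the 198 IDR peaks, 80 were in the window of exactly 1 protein-coding gene, as at thoc-5 and mog-4. Its neighbours in rank were the peak of sec-61.G with F32D8.13 (rank 80, signal 82.6) and a peak outside protein-coding promoter windows (rank 82, signal 82.3).

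The 3 peaks ranked within the best 198 regions of each replicate taken alone, as did 128 of the other 195 IDR peaks. The signals over the lowest IDR signal were 2.65-fold at thoc-5, 2.13-fold at prp-19 and 1.5-fold at mog-4. Of the members with a pooled region, mog-4 was the weakest inside the IDR list, and mog-5 at 25.3 was the strongest outside it, so no member lay near the threshold of 55.0.

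**Figure D1:**
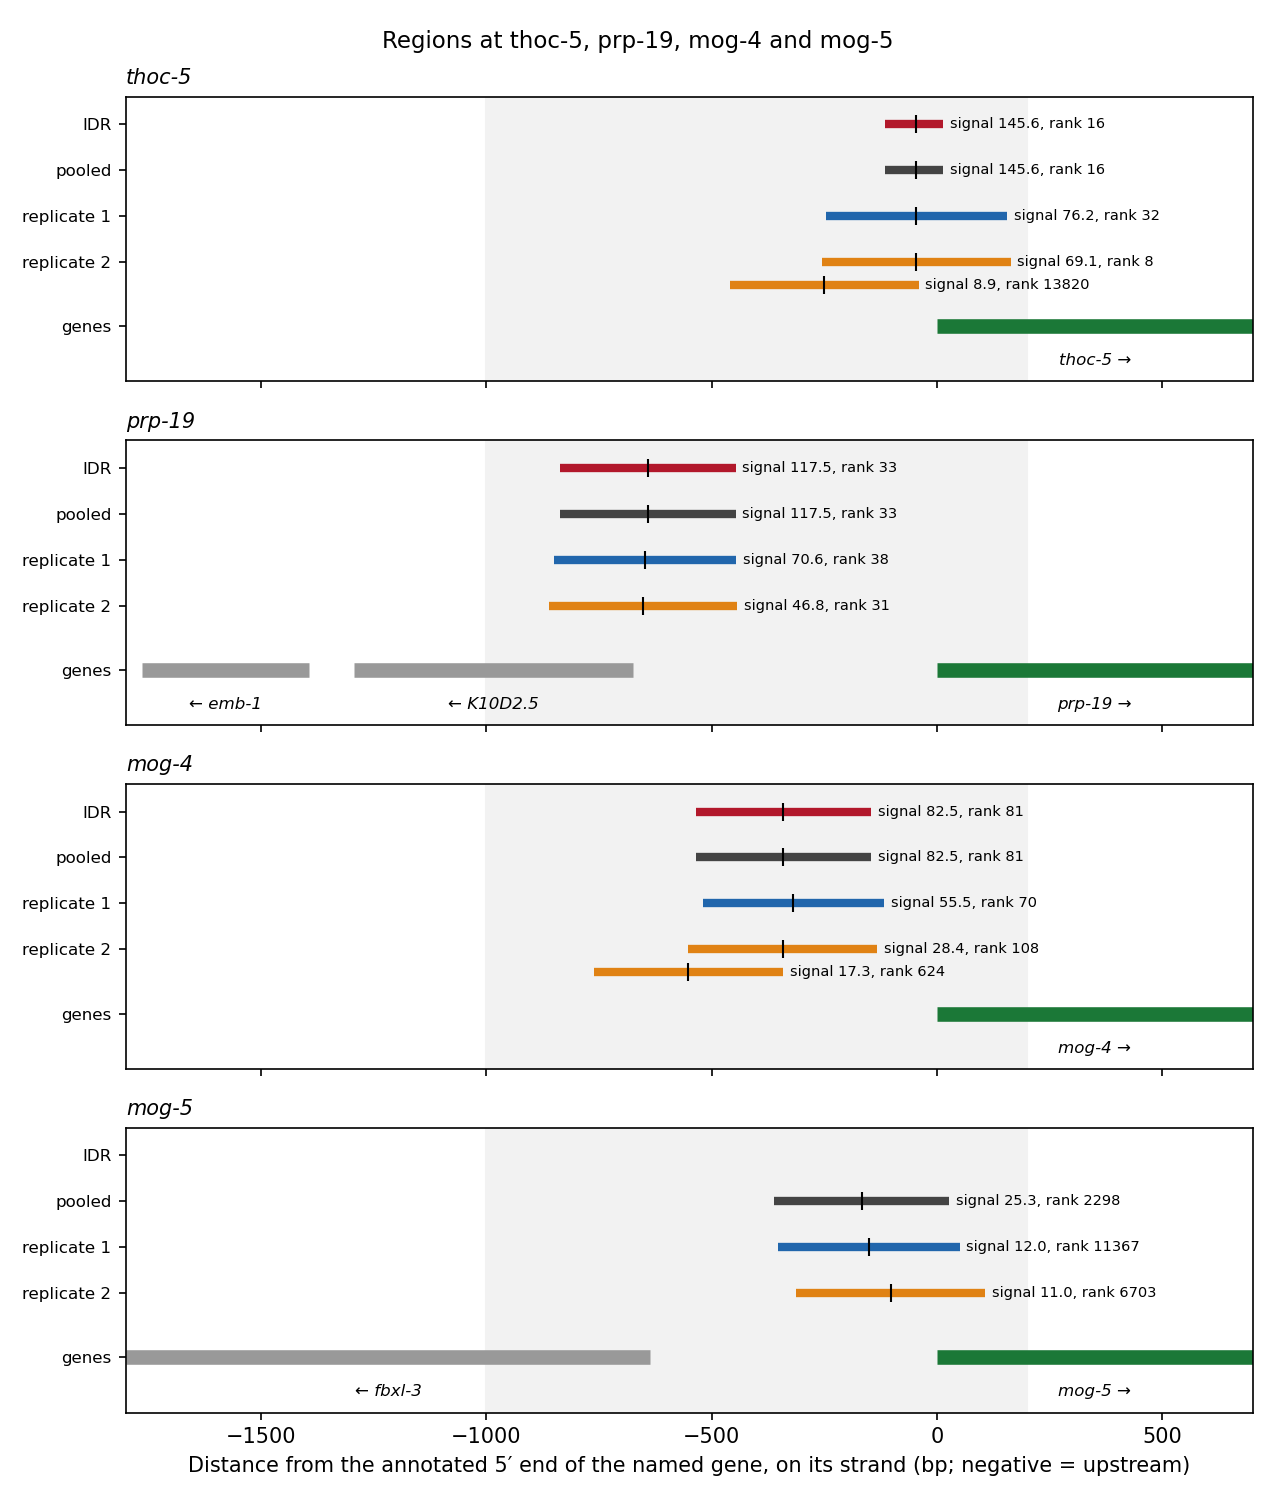
Regions at thoc-5, prp-19, mog-4 and mog-5 in each list, against distance in bp from the annotated 5′ end on the strand of the named gene; coloured bars are regions, black ticks are summits, green bars are the named gene, grey bars are neighbouring protein-coding genes and light shading is the promoter window. The summits of the strongest region in each list lie within 1 bp at thoc-5 (rank 16 in the pooled list), the prp-19 region sits at the start of K10D2.5, and mog-5 has weak regions alone (pooled rank 2298).

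The related helicase gene mog-5, the counterpart of yeast Prp22 that releases mRNA from the spliceosome, had the weakest pooled region of the set. Its signal was 25.3, rank 2298 of 2689, on chromosome II from 5399176 to 5399565. The −log10 q-value in the authors' list was 0.0313, against 2.66 for the peaks at thoc-5, prp-19 and mog-4. The replicates listed signals of 12 (rank 11367) and 11 (rank 6703). Replicate 1 was thus near its list's median signal of 12 and replicate 2 somewhat above its own of 9.53. The pooled summit lay at -167 bp from mog-5 and at -469 bp from fbxl-3, which runs the other way. The replicate summits were at -151 and -102 bp.

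The third helicase gene, mog-1, the counterpart of yeast Prp16 of the second splicing step, had no pooled region in its window. Replicate 1 listed a region with its summit 152 bp inside the gene, at signal 12.3 and rank 10288. Replicate 2 listed 2 regions elsewhere, at -660 bp (signal 8.35, rank 16626) and -992 bp (signal 9.09, rank 12935). Both of these lay nearer the 5′ end of alx-1, whose human relative ALIX acts in endosomal sorting, and they shared the windows of the non-coding genes named K03H1.18. The replicate summits at mog-1 did not coincide. The nearest IDR peak was 87.9 kb from the mog-1 5′ end. Of the mog genes in the set, mog-4 alone had an IDR peak, mog-5 a pooled region of low rank and mog-1 neither.

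The gene prp-8 encodes the core scaffold of the U5 particle, around which the active site is built. It had no pooled region in its window. Replicate 1 placed a region at -337 bp with signal 14.2 and rank 6017, and replicate 2 one at -630 bp with signal 8.03 and rank 18517. The summits lay 293 bp apart, and that of replicate 2 was nearer to bath-42, at -360 bp. The nearest IDR peak was 19.6 kb upstream of prp-8, the shortest such distance among the 7 members without a peak.

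The remaining THO genes stood apart from thoc-5. For thoc-7 the strongest region was in replicate 1, at -40 bp with signal 18 and rank 1910. Replicate 1 had another at -741 bp (signal 14.4, rank 5680), which lay at -232 bp from the ribosomal protein gene rpl-29. The region of replicate 2 was at -264 bp with signal 9.16 and rank 12606, inside rpl-29, and no pooled region fell in the window. The gene thoc-1 had a region in replicate 2 alone, at -446 bp with signal 10.6 and rank 7571, shared with the divergent gene T02H6.11. For thoc-2 and thoc-3 no list had a summit in the window. The nearest summit to thoc-3 was one of replicate 1 at 764 bp downstream with signal 10.0 and rank 19346, and that to thoc-2 was 2395 bp downstream with signal 12.9 and rank 8852, also in replicate 1. The distance to the nearest IDR peak was 356 kb for thoc-3, 496 kb for thoc-2, 642 kb for thoc-7 and 2187 kb for thoc-1. Of the 5 THO genes, 1 had an IDR peak or a pooled region, namely thoc-5, which was chosen with its strong region known. Among all nuclear protein-coding genes, 1.18% had an IDR peak and 6.66% a pooled region.

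**Figure D2:**
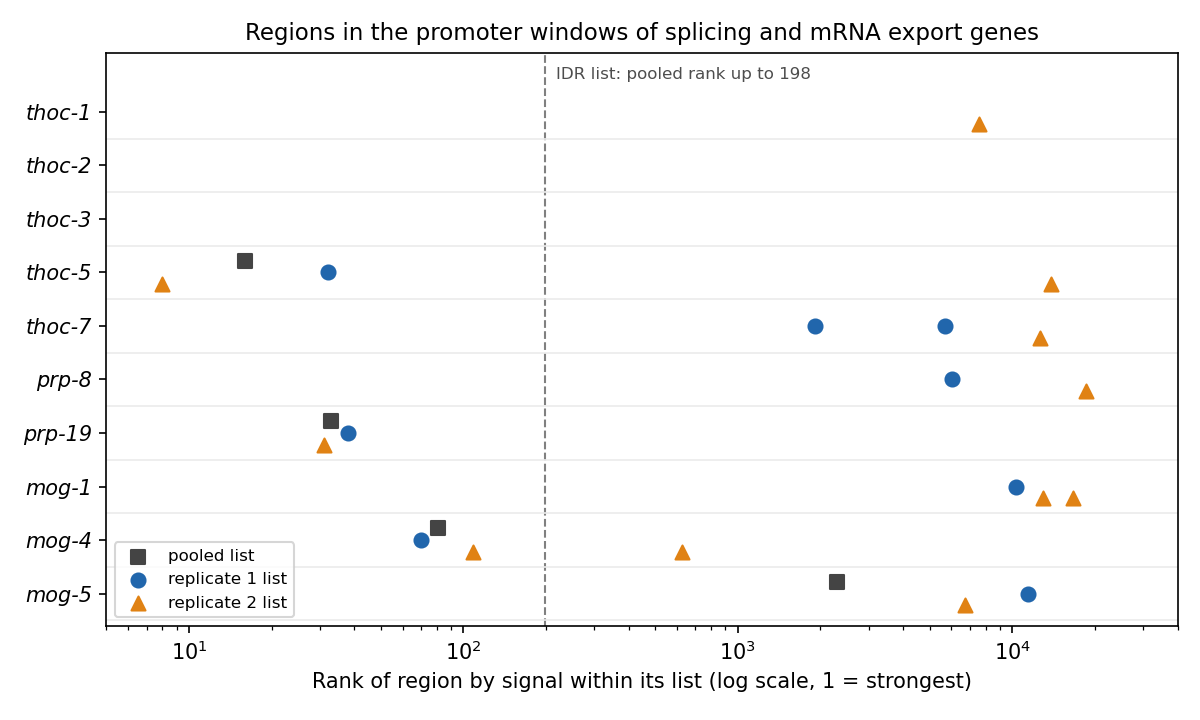
Rank by signal of each region in the promoter window of the 10 genes, within the pooled list, the list of replicate 1 and the list of replicate 2, on a log scale where 1 is strongest; the dashed line is the last IDR peak at pooled rank 198. The strongest regions of thoc-5, prp-19 and mog-4 lie left of the line in every list, and all regions of the other genes lie right of it.

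Over the replicate lists, 7 of 10 genes had a region in replicate 1, against 30.1% of all genes, and 8 of 10 in replicate 2, against 29% of all genes. Regions in both lists were found at 7 of 10, against 12.9% of all genes. These counts include thoc-5, prp-19 and mog-4, known beforehand to carry strong regions, so they are a description. Within the strongest 1000 of both lists there were 3 of 10, again thoc-5, prp-19 and mog-4, against 1.48% of all genes. The summits of the strongest region of each replicate lay 1 bp apart at thoc-5, 5 bp at prp-19, 24 bp at mog-4 and 49 bp at mog-5. At the other 3 of the 7 they lay farther apart, by 224 bp at thoc-7, 293 bp at prp-8 and 1144 bp at mog-1.

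Copies of the first element were also present at a gene with no region. The promoter window of thoc-2, the scaffold subunit of the THO complex, held 2 exact copies of CTAGGCCA, both read as TGGCCTAG on its strand, and 2 more with 1 mismatch. They are shown because no list had a summit in that window. Each stretch has the copy in capitals with 20 bases to either side, on the plus strand.
thoc-2, from -519 to -472 bp, chrIII:6367523-6367570: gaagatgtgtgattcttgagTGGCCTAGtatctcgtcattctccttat
thoc-2, from -183 to -136 bp, chrIII:6367859-6367906: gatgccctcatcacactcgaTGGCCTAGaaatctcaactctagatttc

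Both copies lie within C56G2.15, a gene on the opposite strand whose 5′ end is at -143 bp from that of thoc-2. An exact copy of CTAGGCCA or ACTCCTCT in the promoter window was found at 2 of 10 members, thoc-2 and thoc-5, against 6.1% of all protein-coding genes (1219 of 19973). Of the 695 genes with at least 1 exact CTAGGCCA, 75 (10.8%) had an IDR peak in the window, against 1.18% of all protein-coding genes. The word was chosen for its excess at these same IDR peaks, so a raised share follows from that choice. No region in any list was found at 313 of the 695 (45%), where 53.8% of all protein-coding genes had none. Of the 147 genes with at least 2 exact copies, as thoc-2, 7 (4.76%) had an IDR peak and 68 (46.3%) had no region in any list. With up to 1 mismatch such words are common in windows of this length: 61.4% of all protein-coding genes held at least 1 of the pair. In the windows of prp-19, mog-1, mog-4, mog-5 and thoc-1 neither word was found even so.

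**Figure D3:**
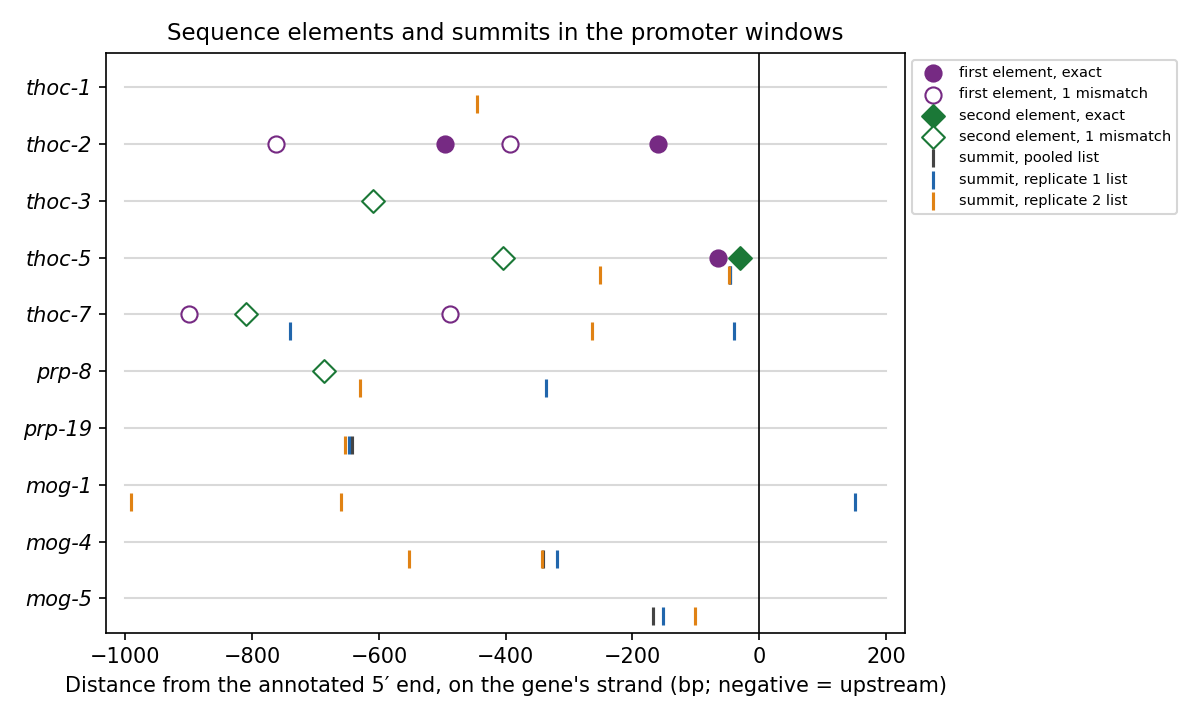
Positions of the first element (CTAGGCCA, circles) and the second (ACTCCTCT, diamonds) and of region summits (vertical ticks) in the promoter windows of the 10 genes, in bp from the annotated 5′ end; filled symbols are exact copies and open symbols have 1 mismatch. Exact copies of both flank the summits of thoc-5 at -46 bp, and thoc-2 has 2 exact copies of the first and no summit.

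Other genes of the same machinery were read from lists written out by role, 112 symbols of which 100 matched the annotation. An IDR peak was found at 4 of the 100 (4%), against 1.18% of all protein-coding genes, and 20 had a pooled region, against 6.66%. The lists were written with some of these peaks known, that of cyn-10 among them, so the counts are a description. Of the 4, 3 were in the list of the Prp19 complex and catalytic steps, at 3 of 21 genes, and the fourth was among 13 genes of SR proteins and their partners. No gene had an IDR peak among 18 of the U1 and U2 particles, 14 of the Sm and LSm rings, 13 of the U4/U6 and U5 particles, 7 of the exon junction and cap-binding complexes and 14 mRNA export factors. Unmatched symbols were not looked up, most of all among export factors, where 14 of 21 listed symbols matched.

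The strongest of the 4 was cyn-10, a cyclophilin that isomerizes proline bonds, at pooled signal 139.4, rank 18, 2 places below thoc-5. It ranked 13 in replicate 1 and 29 in replicate 2, and its summit lay at -134 bp. The peaks of cwc-15 and mog-3, a further gene of the mog group, had signals of 64.5 (rank 137) and 64.1 (rank 138), with summits at -572 and -142 bp. The fourth, at smu-1, which regulates alternative splicing, had signal 57.3 and rank 183, near the bottom of the IDR list. It ranked 183 in replicate 1 and 242 in replicate 2, outside the best 198 of the latter. No protein-coding or other annotated gene shared these 4 peaks by the same window. Exact CTAGGCCA was under the summits of cwc-15 and mog-3, exact ACTCCTCT and GAGTACAC under that of cyn-10, and none of the 3 words, even with 1 mismatch, under that of smu-1. These 4 peaks were among those from which the words were chosen, unlike the peaks of thoc-5, prp-19 and mog-4.

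**Figure D4:**
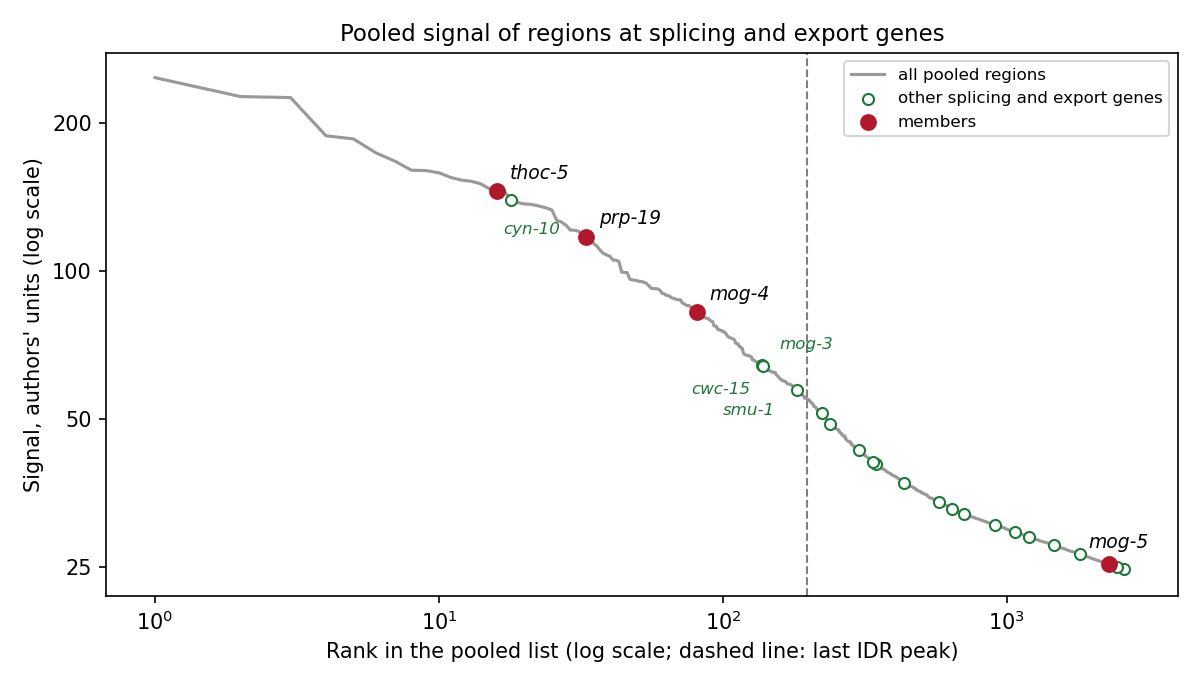
Signal against rank for all 2689 pooled regions (grey line; both axes are log scales), with the members as red points and the other splicing and export genes with a pooled region as green circles; the dashed line is the last IDR peak. The members thoc-5, prp-19 and mog-4 lie at signals of 145.6, 117.5 and 82.5, mog-5 near the bottom at 25.3, and cyn-10, cwc-15, mog-3 and smu-1 are the green circles left of the line.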

How the data were processed

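Chromatin immunoprecipitation from 2 biological replicates of 1 group was read from 4 region lists on ce11. Per the notes deposited with the lists, the authors made a list per replicate and a pooled list of peaks and background with a control, and derived the IDR list from these. No source used here names the aligner, peak caller or IDR threshold. The deposited signal per region has no stated scale, and the deposited −log10 q-value was used for description. Lists on ce10 were not used, since the annotation is of WBcel235, the same build as ce11.

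The gene annotation was Ensembl release 115, and sequences were RefSeq's. Ranks follow signal within a list. Words of 8 bases were ordered by their share of 195 IDR peaks minus their share of flanks. Members, pathway lists and words were chosen with earlier results of these data known. Named genes were the members, genes sharing their regions, the peaks next to them in rank, pathway genes with an IDR peak, and the 6 next strongest; C56G2.15 and the genes sharing regions of those 6 fell outside this rule and were named after their values were seen. Alternatives changed the window, the placing of regions, the list and the words. No test was made, since there is 1 group and the members were chosen by signal. Placement and word search were tested on simulated data. The software was Python 3.11.15 with pandas 2.3.3, NumPy 2.4.6 and Matplotlib 3.10.9.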

Additional observations from a re-analysis of the deposited data

How the results depend on the processing

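Each alternative was compared with the main count, and a count within 1.5 times of it was taken as unchanged. The members with an IDR peak numbered 3 in the 99 stronger peaks. They numbered 2 with the window of 500 to 100 bp or with the nearest 5′ end alone, where prp-19 was lost. Among the 198 strongest regions of each replicate taken alone, which are not IDR peaks, the members with a region also numbered 3. The pathway genes with an IDR peak numbered 4, and in the 99 stronger peaks 1, cyn-10. The share of all protein-coding genes with an IDR peak fell from 1.18% to 0.761% with the nearest 5′ end alone and to 0.641% with the 99 stronger peaks, both by construction. Members with a region in both replicate lists numbered 7, but 4 with the narrow window, 3 with the nearest 5′ end alone and 3 among the strongest 1000 of each list. Members whose IDR peak held an element numbered 1, thoc-5, and 2 with GAGTACAC in place of ACTCCTCT, an alternative added after seeing the data, which added mog-4; with the tied GGAGTACA, also added later, it was 1. Of all comparisons, 32 gave values within 1.5 times and 7 did not. Depth is unknown, so no region listed does not mean no binding.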

Other observations

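Several pathway genes had pooled regions below the IDR list, which ends at rank 198 with signal 55.0. The strongest was at smu-2, whose product works with that of smu-1, with signal 51.4, rank 223, and the summit at -10 bp, in the window of Y49F6B.8 as well. Replicate ranks here are those of each replicate's strongest region in the promoter window, which was not matched to the pooled summit. At smu-2 they were 341 in replicate 1 and 205 in replicate 2. Next was cyn-4, a nuclear cyclophilin also known as mog-6, with signal 48.9, rank 239 and a summit at -121 bp, which copz-1 shared. The export gene rae-1 followed with signal 43.3, rank 301, at -10 bp, with replicate ranks of 259 and 7025. The gene usp-39 had signal 41.0, rank 339, at -167 bp, and replicate ranks of 695 and 277. The U1 protein gene rnp-2 had signal 40.6, rank 346, shared with K08D10.13, with replicate ranks of 202 and 4292. The sixth, acin-1, had signal 37.1, rank 434, shared with cdc-6, with replicate ranks of 6228 and 452. At rae-1, rnp-2 and acin-1 the strongest region in the promoter window thus ranked far higher in a single replicate. Whether the replicate regions at these genes were the same as the pooled region was not tested.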
